A study of Mus musculus with 9 samples.

Results

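The transcripts described here encode the nuclear-encoded subunits of the mitochondrial respiratory chain, the ATP synthase and cytochrome c, in mouse cytotoxic T lymphocytes treated with 1 of 2 mTOR inhibitors. Members were genes with an array probe set carrying a single gene symbol that names a subunit of complex I (Nduf genes), complex II (Sdha to Sdhd), complex III (Uqcr genes and Cyc1), complex IV (Cox4 to Cox8 genes) or complex V (Atp5 genes), together with Cycs. A gene with several such probe sets was taken at the one with the highest 9-array mean, which gave 83 genes of 18193 in all. Of these, 33 fell in complex I, 4 in complex II, 9 in complex III, 19 in complex IV and 17 in complex V, with Cycs as the remaining gene. Ndufa4 and its relative Ndufa4l2 carry complex I names but were placed in complex IV, because human NDUFA4 was found by biochemistry to be a complex IV subunit.

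The cultures came from spleens of P14-TCR mice, labelled wild type, whose transgenic T cell receptor recognises the gp33-41 peptide of a lymphocytic choriomeningitis virus protein. CD8 T cells of the disaggregated spleens were activated with that peptide, IL-2 and IL-12 for 48 h, washed and expanded for a further 96 h, so that RNA was taken on day 6. For the last 48 h the cells received rapamycin at 20 nM (3 cultures), KU-0063794 at 1 uM (3 cultures) or DMSO, the solvent control (3 cultures). Rapamycin, with its binding protein FKBP12, blocks mainly mTOR complex 1, whereas KU-0063794 blocks the catalytic site of the mTOR kinase in both of its complexes. Each replicate number stands for 1 spleen, and the 3 arrays of a number are taken as the 3 treatments of cells from that spleen. Nothing in the labels separates the RNA extractions or array runs into batches.

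Complexes I and II pass electrons from NADH and succinate to ubiquinone, complex III passes them on to cytochrome c, and complex IV passes them to oxygen. Complexes I, III and IV pump protons across the inner mitochondrial membrane, and complex V, the ATP synthase, uses the resulting gradient to make ATP. T cells enlarge their mitochondria after activation, while effector cells also rely strongly on glycolysis. In other cell types mTOR complex 1 is known to promote both the transcription of mitochondrial genes and the translation of mRNAs for respiratory subunits. The arrays measured total RNA, not translation.

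The values were log2 signals per probe set, and array medians lay between 0.47 and 0.53. A level of 1.38 log2, the 95th percentile of 29 genes restricted to other tissues, is called background. Between 29.7% and 30.3% of probe sets lay above it on each array. All 11 measured CD8 T cell identity genes, Cd8a, Cd8b1 and Cd3d among them, lay above background. So did 2 of 9 B cell markers (Ighm and Cd79b), 3 of 6 CD4 T cell markers (Il2ra, Tnfrsf18 and Zbtb7b) and 1 of 13 myeloid markers. The same held for 1 of 3 NK cell markers and 1 of 7 erythroid or stromal markers. Cd79a, Pax5, Cd4, Foxp3, Cd40lg, Lyz2 and Ncr1 did not lie above background. The summed linear signal of the CD4 T cell list came almost all from Il2ra and Tnfrsf18, not from Cd4. This sum was 362 to 425 with rapamycin and 361 to 426 with KU-0063794, against 422 to 532 with DMSO. That of the B cell list, almost all from Ighm, was 161 to 643 with rapamycin and 186 to 600 with KU-0063794, against 136 to 637 with DMSO. That of the NK cell list, mainly from Klrc1, was 42.3 to 53.3 with rapamycin and 34.0 to 50.1 with KU-0063794, against 23.7 to 44.8 with DMSO. Among all these marker genes, 1 was called with each inhibitor: Cd68, below background, with rapamycin (log2 fold change -0.50, limma adjusted p = 0.0208) and Lat, of the CD8 list, with KU-0063794 (-0.39, limma adjusted p = 0.0229). The 3' signal of actin less its 5' signal, a sign of RNA integrity and labelling, was 0.62 to 0.72 log2 with rapamycin and 0.65 to 0.70 with KU-0063794, against 0.49 to 0.65 with DMSO. It was higher with each inhibitor in every spleen. The same measure for Gapdh went the other way, being lower with each inhibitor in every spleen. For Gapdh it was -0.245 to -0.027 log2 with rapamycin and -0.224 to -0.026 with KU-0063794, against -0.21 to 0.036 with DMSO. The part of these markers and controls in the results below was not tested. In bulk RNA, fewer cells of a type and less RNA per cell cannot be told apart.

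Most of the respiratory machinery was measured well above background. A filter that kept genes with a mean above 0.31 log2 left 80 of the 83 members among 13278 tested genes, and 75 of them lay above background, as did 8031 of all genes tested. Background was exceeded by 32 members of complex I, all 4 of complex II, all 9 of complex III, 12 of complex IV, all 17 of complex V and Cycs. The members below it were mainly isoforms known from other tissues. Of the heart and muscle forms, Cox6a2 averaged 0.87 log2 with rapamycin, 1.13 with KU-0063794 and 1.14 with DMSO, and Cox8b averaged 0.77 with rapamycin, 0.70 with KU-0063794 and 0.64 with DMSO. Cox4i2, the lung form that responds to oxygen, averaged 0.69 log2 with rapamycin, 0.70 with KU-0063794 and 0.64 with DMSO, and Ndufa4l2, a hypoxia-induced relative of Ndufa4, averaged 1.04 with rapamycin, 1.18 with KU-0063794 and 1.07 with DMSO. The muscle form Cox7a1 and the testis form Cox7b2 did not pass the filter, with means over the 9 arrays of 0.23 and 0.08 log2. Of the testis forms, Cox8c lay above background on every array and Cox6b2 crossed it between arrays, from 0.85 log2 in DMSO replicate 1 to 1.80 in KU-0063794 replicate 2. Cox7c and Ndufb4, subunits in use in all tissues, also read at background, with means of 0.58 to 0.79 log2 in the 3 groups for Cox7c and 0.16 over the 9 arrays for Ndufb4, so these probe sets gave no usable measure of them.

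A few subunit genes were called with either inhibitor, at shares like those of all genes tested. With rapamycin, Cox7a2l rose and Ndufv3 and Uqcrq fell, 3 of the 80 members tested at an adjusted p under 0.05, or 3.75%, against 4.44% of all genes tested (590 of 13278), of which 2.65% were higher and 1.79% lower. With KU-0063794, Ndufv3 and Uqcrq fell, 2 of 80 members or 2.5%, against 4.07% of all genes tested (540 of 13278), with 2.28% higher and 1.78% lower. Both shares of members lay near those of all genes, and a gene not called is not shown to be unchanged. The adjusted p-values here and below come from limma over all genes tested, with the 9 arrays in one fit and no term for the spleen. With the spleen as a block, which left the spread between spleens out of the error, 4 members were called with rapamycin, against 11.8% of all genes, and 3 with KU-0063794, against 12.4%. The block added a fall of Ndufa4 with rapamycin (limma adjusted p = 0.046) and a rise of Cox7a2l with KU-0063794 (limma adjusted p = 0.0213). With the spleen as a random block instead, the Cox7a2l call held (limma adjusted p = 0.0326), Ndufa4 was not called (0.251) and Uqcrfs1 was called lower with rapamycin. Both contrasts use the same 3 DMSO arrays, so their values are not independent of each other.

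**Figure D1:**
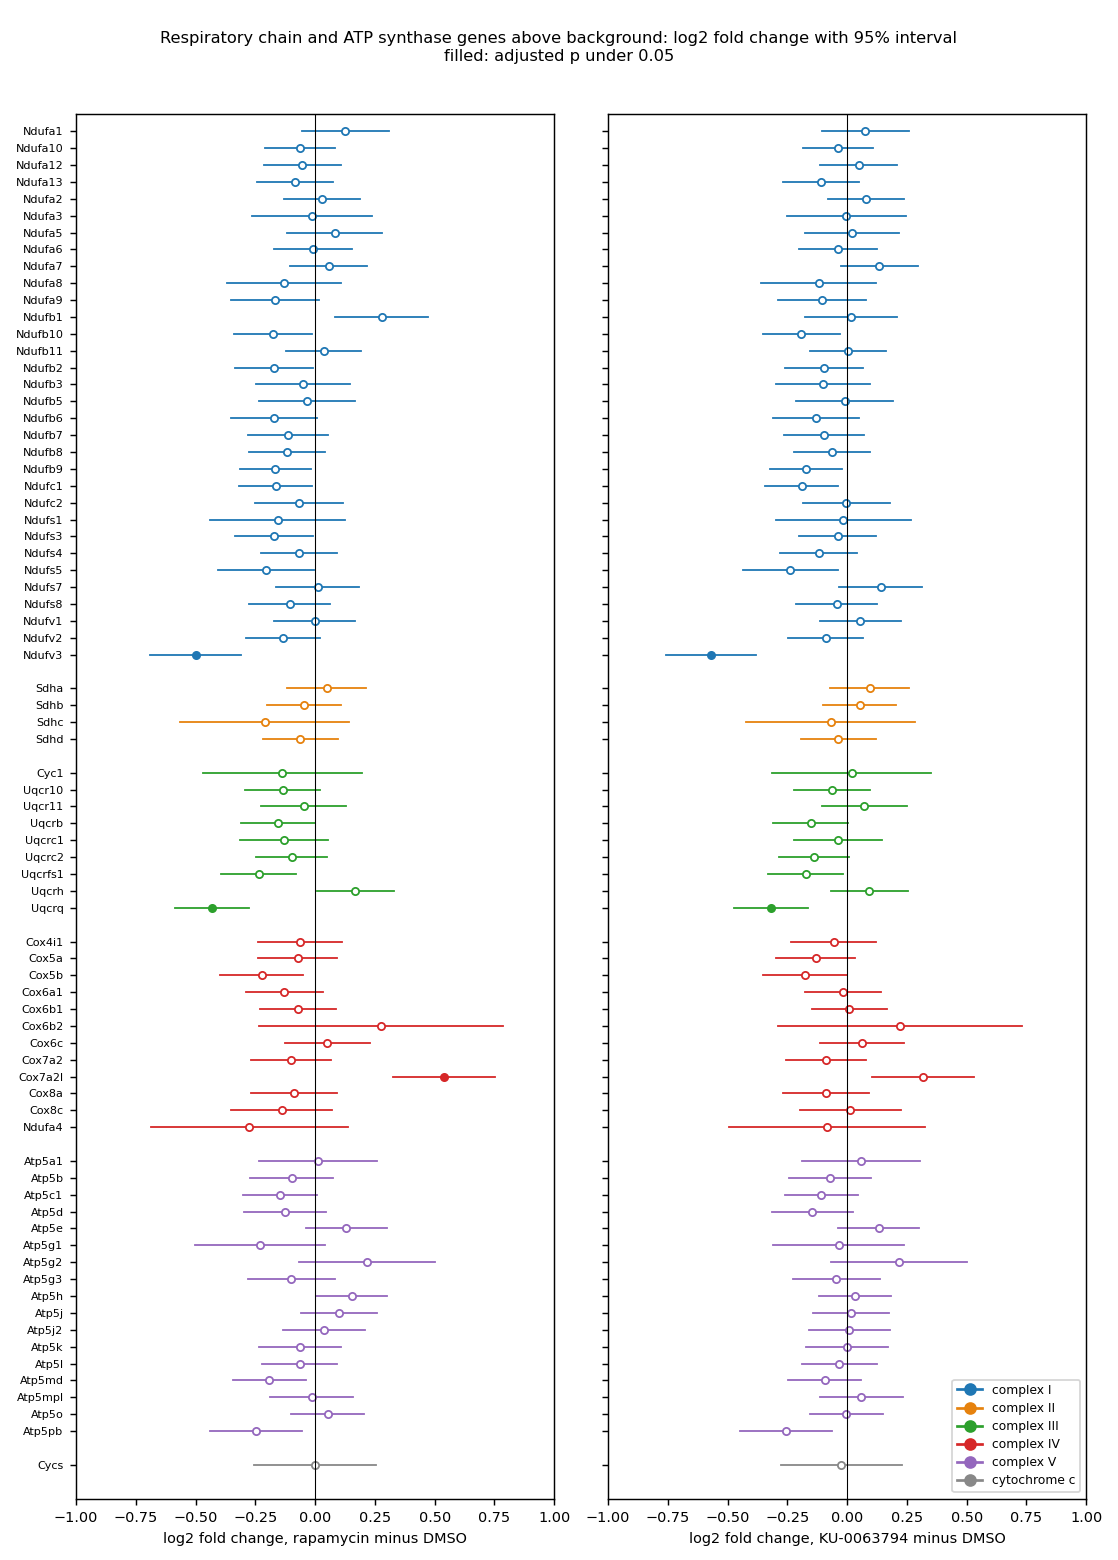
Log2 fold change of the 75 subunit genes above background, rapamycin minus DMSO on the left and KU-0063794 minus DMSO on the right, with 95% intervals from limma (3 arrays a group); colours give the complex and filled points have an adjusted p under 0.05. Cox7a2l at 0.54, Ndufv3 at -0.50 and Uqcrq at -0.43 stand away from the rest with rapamycin, and Ndufv3 at -0.57 and Uqcrq at -0.32 with KU-0063794.

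Cox7a2l encodes a relative of the complex IV subunit Cox7a2 that joins complex III to complex IV in respiratory supercomplexes. It read 7.74, 7.67 and 7.94 log2 in the rapamycin cultures of spleens 1, 2 and 3, 7.49, 7.53 and 7.69 in the KU-0063794 cultures, and 7.21, 7.21 and 7.32 in the DMSO cultures. Every culture with either inhibitor lay above every DMSO culture, and the rapamycin culture was the highest of each spleen. Cox7a2l rose 1.45-fold with rapamycin, a log2 fold change of 0.54 (SE 0.09, n = 3 arrays a group, limma adjusted p = 0.0167, and 0.00377 with the spleen as a block). With KU-0063794 the log2 fold change was 0.32 (SE 0.09), with a limma adjusted p of 0.106 that became 0.0213 with the block. All 3 of its probe sets lay above background, and they differed from DMSO by 0.54, 0.61 and 0.51 log2 with rapamycin and by 0.32, 0.44 and 0.37 with KU-0063794. With the array of DMSO replicate 1, rapamycin replicate 1 or rapamycin replicate 3 left out, the rapamycin adjusted p was 0.0648, 0.0506 or 0.0568.

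Ndufv3 encodes a small accessory subunit of the NADH-oxidising part of complex I. It read 7.71, 7.70 and 7.69 log2 with rapamycin and 7.72, 7.61 and 7.55 with KU-0063794, against 8.32, 8.18 and 8.09 with DMSO. The 6 inhibitor cultures all lay below the 3 DMSO cultures, and the rapamycin cultures hardly differed among themselves (SD 0.008). Ndufv3 fell to 0.707 of the DMSO signal with rapamycin (log2 fold change -0.50, SE 0.08, limma adjusted p = 0.0148, n = 3) and to 0.674 with KU-0063794 (-0.57, SE 0.08, limma adjusted p = 0.0115). The gene had a single probe set, so no second measurement was at hand. The fall with KU-0063794 kept its call when any 1 array was left out, with adjusted p-values up to 0.0497. The fall with rapamycin did not keep it without DMSO replicate 1, rapamycin replicate 1 or rapamycin replicate 3 (limma adjusted p = 0.052, 0.0502 and 0.0546).

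Uqcrq encodes a small membrane-spanning subunit of complex III. It read 7.57, 7.61 and 7.55 log2 with rapamycin and 7.70, 7.70 and 7.67 with KU-0063794, against 8.07, 7.97 and 7.99 with DMSO. The 3 groups did not overlap, rapamycin being lowest and DMSO highest in every spleen. Uqcrq fell to 0.742 of the DMSO signal with rapamycin (log2 fold change -0.43, SE 0.07, limma adjusted p = 0.013, n = 3) and to 0.802 with KU-0063794 (-0.32, SE 0.07, limma adjusted p = 0.0348). The fall with rapamycin kept its call without any 1 array, whereas that with KU-0063794 lost it in 8 of 9 such fits, with adjusted p-values of 0.0462 to 0.12 over the 9, and kept it without rapamycin replicate 3. The other 3 probe sets of Uqcrq read at background, and the mean of all 4 gave -0.08 with rapamycin and 0.00 with KU-0063794.

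Ndufa4, the complex IV subunit named above, was called with the spleen as a fixed block, but not without it or with the spleen as a random block (limma adjusted p = 0.251). It read 6.18, 6.68 and 6.41 log2 with rapamycin and 6.43, 6.84 and 6.58 with KU-0063794, against 6.37, 7.00 and 6.72 with DMSO. Spleen 2 was highest and spleen 1 lowest in every group, so the groups overlapped, although the rapamycin culture was the lowest of each spleen. The log2 fold change was -0.28 with rapamycin (limma adjusted p = 0.494, and 0.046 with the block) and -0.08 with KU-0063794 (limma adjusted p = 0.869, and 0.526 with the block). With the block and any 1 array left out it was not called, with adjusted p-values of 0.056 to 0.154.

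**Figure D2:**
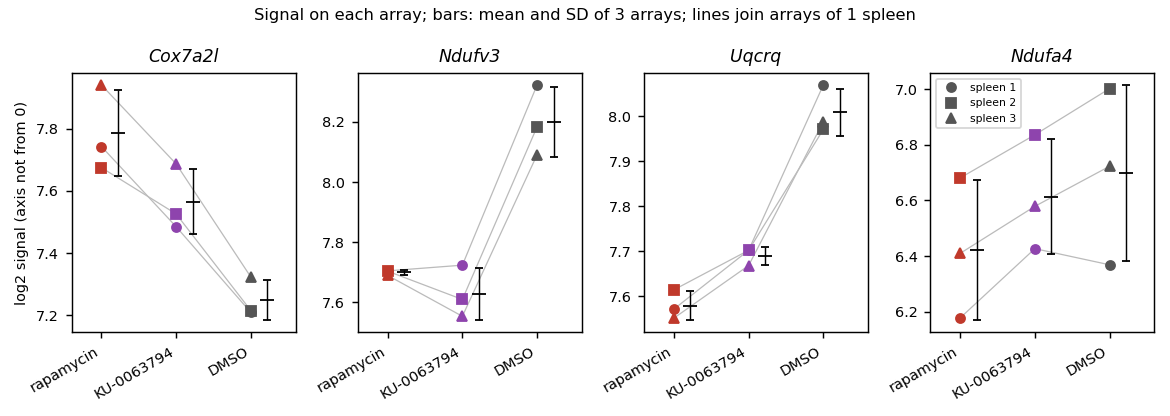
Log2 signal of Cox7a2l, Ndufv3, Uqcrq and Ndufa4 on each of the 9 arrays, with rapamycin, KU-0063794 and DMSO from left to right; symbols and lines mark the spleen and bars give the mean and SD of 3 arrays. The inhibitor cultures lie apart from the DMSO cultures for the first 3 genes, while for Ndufa4 the 3 spleens differ more than the 3 treatments.

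The sequences before the transcription starts of Cox7a2l and Ndufv3 are given here beside those of Cox6a1 and Sdhd. Cox7a2l and Ndufv3 are the genes called without the spleen block that have a window in the RefSeq promoter table (GRCm38.p6). Cox6a1 and Sdhd are members that hold motifs often described at respiratory genes. Each sequence runs 5' to 3' on the gene's strand over the 250 bases before the start. Capitals mark matches, on either strand, to NRF1 (GCGC, any base, then TGCGC), ETS (CCGGAAG) and SP1 (GGGCGG).
Cox7a2l, chr17:83514334-83514583, minus strand: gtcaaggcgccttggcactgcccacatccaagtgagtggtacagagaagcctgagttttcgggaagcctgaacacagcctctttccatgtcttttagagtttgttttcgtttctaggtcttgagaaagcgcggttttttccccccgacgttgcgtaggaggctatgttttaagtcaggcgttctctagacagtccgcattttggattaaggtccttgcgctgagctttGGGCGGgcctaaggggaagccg
Ndufv3, chr17:31519865-31520114, plus strand: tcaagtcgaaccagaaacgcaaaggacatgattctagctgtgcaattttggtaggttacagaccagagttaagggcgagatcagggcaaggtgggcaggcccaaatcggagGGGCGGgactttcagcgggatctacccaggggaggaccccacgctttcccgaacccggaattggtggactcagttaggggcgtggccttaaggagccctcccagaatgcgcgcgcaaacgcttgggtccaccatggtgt
Cox6a1, chr5:115348959-115349208, minus strand: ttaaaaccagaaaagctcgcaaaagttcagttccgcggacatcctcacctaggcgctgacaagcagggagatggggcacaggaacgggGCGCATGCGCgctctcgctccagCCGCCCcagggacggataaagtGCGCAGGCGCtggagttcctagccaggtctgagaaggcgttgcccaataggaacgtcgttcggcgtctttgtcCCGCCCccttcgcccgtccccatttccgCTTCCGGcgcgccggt
Sdhd, chr9:50603850-50604099, minus strand: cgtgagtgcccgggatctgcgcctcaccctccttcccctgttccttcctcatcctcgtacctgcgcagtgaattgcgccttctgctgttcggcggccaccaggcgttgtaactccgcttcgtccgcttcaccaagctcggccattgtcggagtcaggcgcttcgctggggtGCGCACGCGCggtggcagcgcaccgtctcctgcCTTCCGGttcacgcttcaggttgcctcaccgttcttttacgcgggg
In these stretches Cox7a2l held 1 SP1 match, 22 bases before the start, and Ndufv3 held 1, 139 bases before it, with no NRF1 or ETS match in either. Cox6a1 held NRF1 matches 162 and 117 bases before the start, SP1 matches at 139 and 44 and an ETS match at 16, and Sdhd held an NRF1 match at 79 and an ETS match at 46.

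NRF1 and the ETS factor GABP (also called NRF2) are the classical activators of respiratory chain genes. Windows of 300 bases, of which 50 follow the start, were at hand for 67 of the 83 members and for 10619 of the genes tested. The NRF1 motif was in 15 of the 67 (22.4%), against 10.4% of the genes tested and 5.19% of all 27025 genes with a window. Those 15 were Ndufa5, Ndufa6, Ndufa8, Ndufb4 and Ndufs5 in complex I, Sdha and Sdhd in complex II, Uqcrc1 in complex III, Cox6a1 in complex IV, and Atp5c1, Atp5g2, Atp5g3, Atp5h, Atp5k and Atp5o in complex V. The ETS motif was in 17 (25.4%, against 18.5% of genes tested), and the YY1 motif AAGATGG in 10 (14.9%, against 8.16%). The SP1 motif was in 29 (43.3%, against 64.8%), the CCAAT box in 29 (43.3%, against 42.2%), the E-box CACGTG in 6 (8.96%, against 11.1%), the CRE TGACGTCA in 4 (5.97%, against 3.39%) and TATAAA in 8 (11.9%, against 9.25%). Such a match describes the letters in the window and no binding was measured. The median GC content was 58.5% in members and 60.3% in the genes tested.

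Most of the other subunit genes differed from DMSO by little, and their values were more often negative than positive. Of the 75 members above background, 69 (92%) had a log2 fold change within 0.25 of zero with rapamycin, against 69.8% of all genes above background, and 71 (94.7%) with KU-0063794, against 68.4%. The 95% interval lay wholly within 0.5 log2 of zero for 68 members (90.7%, against 61.1% of all genes) with rapamycin and for 71 (94.7%, against 60.3%) with KU-0063794. Members were also measured more precisely. The median half-width of the interval was 0.17 log2 in members above background, against 0.261 in all genes above background, in every contrast. How much of the higher shares near zero comes from this precision was not tested. The median log2 fold change was -0.07 with rapamycin, against 0.01 over all genes above background, and -0.04 with KU-0063794, against 0.02. With rapamycin 56 members (74.7%) had a negative value, against 48.8% of all genes, and with KU-0063794 49 (65.3%), against 47.1%. An unadjusted p under 0.05 was reached by 16 members tested (20%) with rapamycin, against 17.9% of all genes tested, and by 10 (12.5%) with KU-0063794, against 18.5%.

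**Figure D3:**
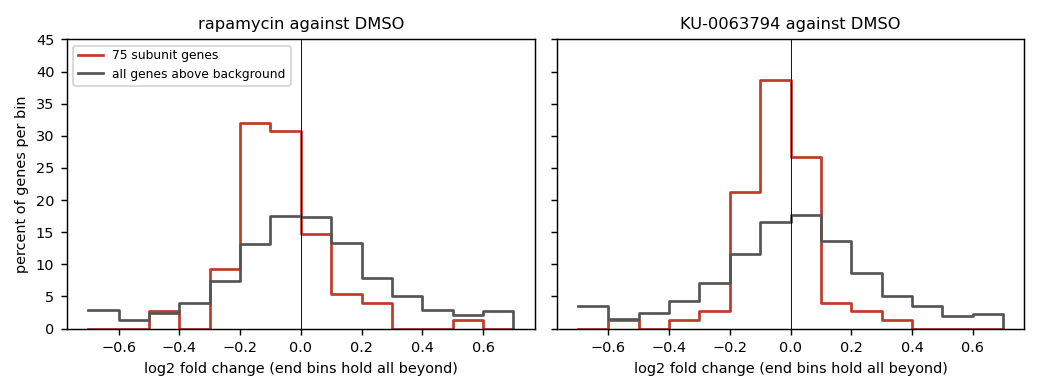
Percent of genes per bin of 0.1 log2 fold change for the 75 subunit genes and for the 8031 genes above background, rapamycin against DMSO on the left and KU-0063794 against DMSO on the right. With rapamycin 92% of the subunit genes lie within 0.25 of zero, against 69.8% of all genes, and their median is -0.07; with KU-0063794 94.7% do, against 68.4%, and their median is -0.04.

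Inhibitor and DMSO cultures were also compared spleen by spleen. With rapamycin 45 of the 75 were below DMSO in all 3 spleens, against 26.4% of all genes above background, and 15 were above it in all 3, against 27.7%. With KU-0063794 31 were below in all 3 spleens, against 26%, and 15 above, against 29.8%. The 3 rapamycin arrays lay below all 3 DMSO arrays for 25 members, against 12.8% of all genes above background, and above them for 7, against 14%. The counts with KU-0063794 were 22 below, against 13.4%, and 7 above, against 16%. The range of the 3 spleen means, highest less lowest, had a median of 0.08 log2. The median absolute log2 fold change was 0.12 with rapamycin and 0.07 with KU-0063794. In 30 of the 75 members the spleens spanned more than either inhibitor's difference from DMSO. These measures are unlike, because a range over 3 means tends to be wider than a difference of 2 means. The median SD over the 3 arrays was 0.06 log2 with rapamycin, 0.06 with KU-0063794 and 0.06 with DMSO.

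In complex I, the 32 members above background had a median log2 fold change of -0.08 with rapamycin, from -0.50 to 0.28, and of -0.04 with KU-0063794, from -0.57 to 0.14. Negative values numbered 25 with rapamycin and 23 with KU-0063794, with only Ndufv3 called. All 3 rapamycin arrays lay below all 3 DMSO arrays for 12 members, which were Ndufa9, Ndufa10, Ndufb2, Ndufb6, Ndufb8, Ndufb9, Ndufb10, Ndufc1, Ndufs3, Ndufs5, Ndufv2 and Ndufv3, against 12.8% of all genes above background, and above them for Ndufa1 and Ndufb1, against 14%. With KU-0063794 the counts were 11 below, against 13.4%, and 4 above, against 16%. The core subunits that carry the electrons did not pass: Ndufv1, which binds the flavin, had a log2 fold change of 0.00 with rapamycin and 0.06 with KU-0063794, and Ndufs1, with several iron-sulphur clusters, had -0.16 with rapamycin and -0.02 with KU-0063794. Ndufb8, an accessory subunit of the membrane arm often used as a marker of assembled complex I, had -0.12 with rapamycin and -0.06 with KU-0063794. Ndufs5, another accessory subunit, had -0.21 with rapamycin (limma adjusted p = 0.266) and -0.24 with KU-0063794 (limma adjusted p = 0.191).

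Ndufb1, a small accessory subunit of the membrane arm, had the highest rapamycin value of complex I. It read 4.34, 4.36 and 4.39 log2 with rapamycin and 4.18, 4.04 and 4.08 with KU-0063794, against 3.93, 4.16 and 4.16 with DMSO. The rapamycin cultures lay above all others, and the KU-0063794 and DMSO cultures overlapped. The log2 fold change was 0.28 with rapamycin (95% interval 0.08 to 0.47, limma adjusted p = 0.115, and 0.0796 with the block) and 0.01 with KU-0063794.

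Complex II, succinate dehydrogenase, also belongs to the tricarboxylic acid cycle, and none of its 4 genes passed the test with either inhibitor. Sdha, the flavoprotein, read 6.40, 6.37 and 6.40 log2 with rapamycin and 6.40, 6.41 and 6.50 with KU-0063794, against 6.26, 6.35 and 6.41 with DMSO. Its log2 fold change was 0.05 with rapamycin and 0.09 with KU-0063794. Sdhb, the iron-sulphur subunit, had -0.05 with rapamycin and 0.05 with KU-0063794. With each inhibitor its values overlapped those of DMSO, as did those of Sdha, while its 3 rapamycin cultures (8.18, 8.24 and 8.25 log2) lay below its 3 KU-0063794 cultures (8.28, 8.32 and 8.37). Of the membrane anchors, Sdhd had -0.06 with rapamycin and -0.04 with KU-0063794, and Sdhc had -0.21 with rapamycin and -0.07 with KU-0063794. Sdhc had the widest interval of the complex, -0.56 to 0.14 with rapamycin. A second probe set of Sdhc had the opposite sign, 0.10 with rapamycin and 0.13 with KU-0063794.

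Complex III had the lowest median of the 5 complexes with rapamycin, -0.14 over its 9 members, and -0.06 with KU-0063794. Its values ran from Uqcrq, at -0.43 with rapamycin and -0.32 with KU-0063794, to Uqcrh, the hinge protein that contacts cytochrome c, at 0.17 with rapamycin and 0.09 with KU-0063794. Uqcrfs1, the Rieske iron-sulphur protein, read 7.28, 7.38 and 7.27 log2 with rapamycin and 7.38, 7.39 and 7.34 with KU-0063794, against 7.54, 7.57 and 7.52 with DMSO. Its inhibitor cultures all lay below its DMSO cultures, with log2 fold changes of -0.24 with rapamycin (limma adjusted p = 0.102, and 0.051 with the block) and -0.17 with KU-0063794 (limma adjusted p = 0.22, and 0.125 with the block). Of the core proteins, Uqcrc1 had -0.13 with rapamycin and -0.04 with KU-0063794, and Uqcrc2 had -0.10 with rapamycin and -0.14 with KU-0063794. Cyc1, the haem-bearing cytochrome c1, had -0.14 with rapamycin and 0.02 with KU-0063794. Rapamycin arrays lay below all DMSO arrays for Uqcr10, Uqcrb, Uqcrc2, Uqcrfs1 and Uqcrq, against 12.8% of all genes above background. The rapamycin arrays lay above all DMSO arrays for Uqcrh, against 14%. Uqcrh itself read 8.83, 8.85 and 8.94 log2 with rapamycin and 8.74, 8.78 and 8.86 with KU-0063794, against 8.70 in each DMSO culture. Its limma adjusted p was 0.257 with rapamycin and 0.559 with KU-0063794. The 3 probe sets of Uqcr10, a small subunit, differed in size but not in sign, at -0.14, -0.23 and -0.55 log2 with rapamycin, the first being the one used.

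In complex IV, the 12 members above background had a median of -0.08 with rapamycin and -0.04 with KU-0063794, and Cox7a2l was the one gene called. Cox5b, a zinc-binding subunit on the matrix side, read 9.70, 9.67 and 9.83 log2 with rapamycin and 9.73, 9.78 and 9.84 with KU-0063794, against 9.91, 9.94 and 10.03 with DMSO. Every inhibitor culture lay below every DMSO culture, with log2 fold changes of -0.22 with rapamycin (limma adjusted p = 0.161, and 0.0615 with the block) and -0.18 with KU-0063794 (limma adjusted p = 0.267, and 0.122 with the block). Cox4i1, the regulatory subunit that binds ATP, had -0.06 with each inhibitor and its groups overlapped. Cox5a, a matrix-side subunit, had -0.07 with rapamycin and -0.13 with KU-0063794, and Cox6a1, the ubiquitous form of a subunit in the membrane, had -0.13 with rapamycin and -0.02 with KU-0063794. Cox7a2, which the product of Cox7a2l resembles, had -0.10 with rapamycin (limma adjusted p = 0.536) and -0.09 with KU-0063794 (limma adjusted p = 0.606), and Cox8a had -0.09 with each inhibitor. Of the testis forms, Cox6b2 had 0.28 with rapamycin and 0.22 with KU-0063794, and Cox8c had -0.14 with rapamycin and 0.01 with KU-0063794. Rapamycin arrays lay below all DMSO arrays for 3 members, Cox5a, Cox5b and Cox6a1, against 12.8% of all genes above background. They lay above them for Cox7a2l, against 14%. With KU-0063794 the counts were 3 below, against 13.4%, and 1 above, against 16%.

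In complex V, the 17 members had a median of -0.06 with rapamycin, from -0.25 to 0.22, and of 0.00 with KU-0063794, from -0.26 to 0.22, and none was called. In the catalytic head, Atp5a1, the alpha subunit, had 0.01 with rapamycin and 0.06 with KU-0063794, and Atp5b, the beta subunit, had -0.10 with rapamycin and -0.07 with KU-0063794. A dim probe set of Atp5a1 (mean 1.54 log2) gave -0.38 with rapamycin and -0.35 with KU-0063794, unlike the one used. Atp5pb, the b subunit of the peripheral stalk, read 8.90, 8.96 and 8.78 log2 with rapamycin and 8.78, 8.94 and 8.90 with KU-0063794, against 9.22, 9.11 and 9.06 with DMSO. All its inhibitor cultures lay below its DMSO cultures, with log2 fold changes of -0.25 with rapamycin (limma adjusted p = 0.16) and -0.26 with KU-0063794 (limma adjusted p = 0.141). All rapamycin arrays lay below all DMSO arrays for 5 members, Atp5c1, Atp5d, Atp5g3, Atp5md and Atp5pb, against 12.8% of all genes above background. They lay above them for 3, Atp5e, Atp5h and Atp5j, against 14%. With KU-0063794 the counts were 4 below, against 13.4%, and 1 above (Atp5e), against 16%.

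The 3 genes Atp5g1, Atp5g2 and Atp5g3 encode the same mature protein of the rotating c ring with different import sequences, and their values differed in direction. Atp5g2 read 8.17, 7.99 and 8.44 log2 with rapamycin and 8.21, 8.07 and 8.32 with KU-0063794, against 7.97, 7.86 and 8.12 with DMSO. It was above DMSO in every spleen with each inhibitor, while spleen 3 was highest and spleen 2 lowest in each group, and the groups overlapped. Its log2 fold change was 0.22 with each inhibitor, with a limma adjusted p of 0.427 with rapamycin (0.0972 with the block) and 0.411 with KU-0063794 (0.0912 with the block). Atp5g1 had -0.23 with rapamycin (limma adjusted p = 0.368) and -0.04 with KU-0063794 (limma adjusted p = 0.922). Atp5g3 had -0.10 with rapamycin and -0.05 with KU-0063794, and none of the 3 passed the test.

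Cycs encodes somatic cytochrome c, the mobile carrier between complexes III and IV that also triggers apoptosis when released. It read 9.39, 9.17 and 9.07 log2 with rapamycin and 9.33, 9.22 and 9.02 with KU-0063794, against 9.32, 9.16 and 9.15 with DMSO. Spleen 1 was highest in each group and the groups overlapped, with log2 fold changes of 0.00 with rapamycin (95% interval -0.26 to 0.25) and -0.02 with KU-0063794 (-0.28 to 0.23).

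Averaged per array, each complex could be followed across the 9 cultures. The mean deviation of the 9 complex III genes from their own 9-array means was -0.08, -0.06 and -0.05 log2 on the rapamycin arrays and -0.03, -0.01 and 0.02 on the KU-0063794 arrays, against 0.05, 0.08 and 0.08 on the DMSO arrays. For complex I it was -0.04, -0.06 and 0.01 with rapamycin and -0.01, -0.02 and -0.02 with KU-0063794, against 0.05, 0.02 and 0.07 with DMSO. In both complexes every inhibitor array lay below every DMSO array. The groups overlapped in complexes II, IV and V, where complex V had -0.03, -0.04 and 0.02 with rapamycin and -0.02, -0.03 and 0.05 with KU-0063794, against 0.02, -0.01 and 0.04 with DMSO. These means include the called genes Ndufv3 and Uqcrq. With Ndufv3 left out of complex I and Uqcrq left out of complex III, the inhibitor and DMSO arrays overlap in both complexes. The means are a description with no test.

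**Figure D4:**
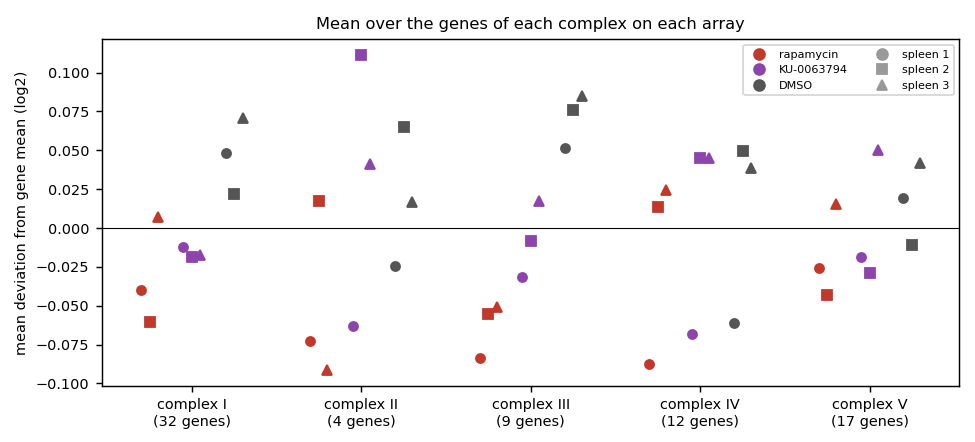
Mean deviation (log2) of the genes of each complex above background from their 9-array means, on each array, with rapamycin, KU-0063794 and DMSO from left to right within a complex and symbols for the spleens. In complexes I and III, with Ndufv3 and Uqcrq included, the 3 DMSO arrays lie above the 6 inhibitor arrays. Without these genes the groups of both complexes overlap, as they do in complexes II, IV and V.

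Where a gene had several probe sets, they served as a check within the same arrays. The 83 members had 169 probe sets, and 34 had a single one. Of the 39 members with 2 or more probe sets above background, the sign of the difference from DMSO varied between probe sets in 12 with rapamycin and in 9 with KU-0063794. The median range between probe sets of a gene was 0.05 log2 with rapamycin, and the widest was 0.41, in Uqcr10. The rise of Cox7a2l was the same in sign in all 3 of its probe sets, while the falls of Ndufv3 and Uqcrq each rested on 1 probe set above background.

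**Figure D5:**
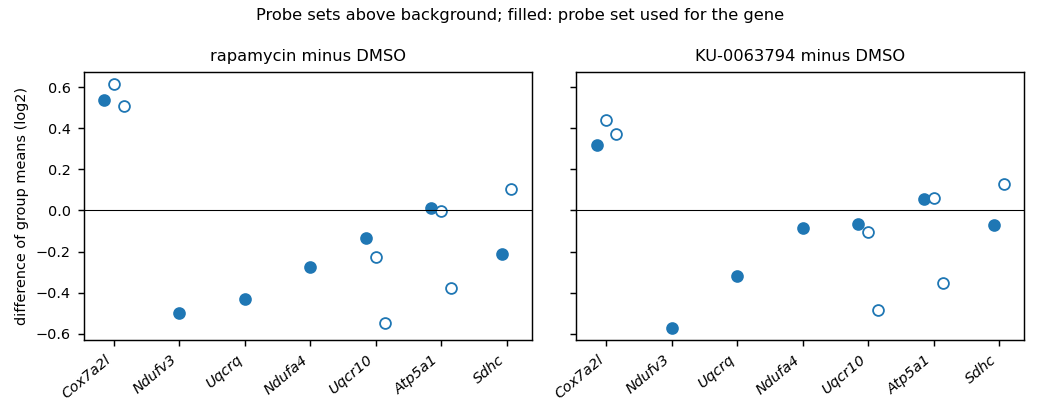
Difference of group means (log2) for each probe set above background of 7 subunit genes, rapamycin minus DMSO on the left and KU-0063794 minus DMSO on the right; filled points are the probe sets used. The 3 probe sets of Cox7a2l lie between 0.51 and 0.61 with rapamycin, while those of Uqcr10, Atp5a1 and Sdhc spread more widely.

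KU-0063794 was also set against rapamycin, which asks whether blocking the mTOR kinase itself gave other levels than rapamycin did at these single doses. No member and no gene of 13278 was called by limma (0 of 80, against 0% of all genes), also with the spleen as a block. At an unadjusted p under 0.05 there were 2 members (2.5%), Ndufb1 and Cox7a2l, against 4.74% of all genes tested, and 4 members with the block. Ndufb1 was lower with KU-0063794 than with rapamycin in all 3 spleens, by a log2 difference of -0.26 (95% interval -0.46 to -0.07, limma adjusted p = 0.933). Cox7a2l was likewise lower in all 3 spleens, at -0.22 (95% interval -0.43 to -0.01, limma adjusted p = 0.933). For Ndufv3 the difference was -0.07 (-0.26 to 0.12) and for Uqcrq 0.11 (-0.04 to 0.27). The interval lay within 0.5 log2 of zero for 73 of the 75 members above background (97.3%, against 76.9% of all genes), the exceptions being Cox6b2 and Ndufa4. With KU-0063794 28 members lay above rapamycin in all 3 spleens, against 19.2% of all genes above background, and 10 below, against 18.1%. The 3 arrays lay above all 3 rapamycin arrays for 10 members, against 5.57%, and below them for 3, against 4.5%. The median was 0.03, against 0.00 for all genes above background, and the median of complex II and of complex III was 0.07. Values past the threshold with one inhibitor and not the other, as for Cox7a2l, are thus not shown to differ between the inhibitors.

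Among the proteins that build the complexes, 3 of 45 tested assembly factors fell and none rose with rapamycin, and 1 fell with KU-0063794; of all genes tested 1.79% fell with rapamycin and 1.78% with KU-0063794. Surf1, needed for complex IV assembly, read 5.26, 5.09 and 5.20 log2 with rapamycin and 5.29, 5.27 and 5.23 with KU-0063794, against 5.61, 5.63 and 5.69 with DMSO. All its inhibitor cultures lay below its DMSO cultures, and it fell by 0.46 on the log2 scale with rapamycin (limma adjusted p = 0.013) and by 0.38 with KU-0063794 (limma adjusted p = 0.0249), the one assembly factor called with that inhibitor. Higd2a, tied to the assembly of complex IV and supercomplexes, had -0.47 with rapamycin (limma adjusted p = 0.0148) and -0.29 with KU-0063794 (limma adjusted p = 0.0807). Tmem70, an assembly factor of the ATP synthase, had -0.33 with rapamycin (limma adjusted p = 0.0375) and -0.19 with KU-0063794 (limma adjusted p = 0.197). The list's median was -0.09 with rapamycin and -0.08 with KU-0063794, against 0.00 and 0.01 over all genes tested. With the spleen as a block 2 rose and 4 fell with rapamycin, where 11.8% of all genes were called, and 1 rose and 3 fell with KU-0063794, where 12.4% were.

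The neighbouring pathways gave few calls. None of 19 tricarboxylic acid cycle genes, 19 genes for other electron entry and carriers, 26 import and inner membrane genes or 20 regulators of mitochondrial gene expression was called with either inhibitor. Of all genes tested, 4.44% were called with rapamycin and 4.07% with KU-0063794, so lists this short would hold few calls at those shares. The median of the regulators was 0.14 with each inhibitor, and that of the cycle enzymes -0.07 with rapamycin and 0.00 with KU-0063794. With the spleen as a block, 11.8% of all genes were called with rapamycin and 12.4% with KU-0063794. In that fit 2 regulators rose and 2 fell with rapamycin, and 2 rose with KU-0063794. Of the electron entry and carrier genes 2 fell with each inhibitor, and of the import and inner membrane genes 1 rose with each. Of the cycle genes 1 rose with KU-0063794. Tfam, which packages and transcribes mitochondrial DNA, had a log2 fold change of 0.30 with rapamycin (limma adjusted p = 0.0268 with the block) and 0.27 with KU-0063794 (limma adjusted p = 0.0363 with the block). Neither passed without the block (limma adjusted p = 0.167 and 0.201). Tfb1m, a methyltransferase of the mitochondrial ribosomal RNA, had 0.35 with rapamycin (limma adjusted p = 0.0428 with the block) and 0.36 with KU-0063794 (limma adjusted p = 0.0372 with the block). Lonp1, the matrix protease, had -0.70 with rapamycin (limma adjusted p = 0.0202 with the block) and Gabpb1, a subunit of GABP, had -0.53 with rapamycin (limma adjusted p = 0.0208 with the block). Gpd2, the mitochondrial glycerol phosphate dehydrogenase, and Slc25a12, an aspartate and glutamate carrier, also passed only with the block. Gpd2 had -0.46 with rapamycin (limma adjusted p = 0.017) and -0.64 with KU-0063794 (limma adjusted p = 0.00549), and Slc25a12 had -0.50 with rapamycin (limma adjusted p = 0.00772) and -0.43 with KU-0063794 (limma adjusted p = 0.0126). Immt, the core of the cristae-shaping MICOS complex, had 0.27 with each inhibitor (limma adjusted p = 0.048 with rapamycin and 0.044 with KU-0063794, with the block). Idh3g, a subunit of isocitrate dehydrogenase, had 0.25 with KU-0063794 (limma adjusted p = 0.0492 with the block). Of the mitochondrially encoded subunits only ND5 of complex I had a probe set. It read 8.13, 8.03 and 7.06 log2 with rapamycin and 8.30, 8.12 and 6.86 with KU-0063794, against 8.08, 8.29 and 7.30 with DMSO, so that spleen 3 was lowest in every group and the groups overlapped.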

How the data were processed

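RNA of 9 cultures (3 groups of 3) was hybridised to 1 Affymetrix mouse expression array each. The deposited values are log2 signals per probe set, made by the authors with Affymetrix Expression Console 1.3.1, per the submitters' processing notes; background correction, summarisation and normalization are not given in the sources used here. Hybridisation controls rose by 0.932 log2 per doubling, so folds may be slightly understated. Values were used as deposited, and no 2 arrays were identical. The precision is limited by 3 arrays a group.

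Of 45101 probe sets, 34945 had 1 annotated gene symbol and entered; 932 with several, 9160 unlisted and 64 controls were not. Each gene took its probe set of highest mean, and genes with a mean above the 40th percentile (0.31 log2) entered limma 3.58.1 (R 4.3.3; lmFit, eBayes, 3 groups over 9 arrays, two-sided, Benjamini-Hochberg over 13278 genes, threshold 0.05). Folds are 2 to the power of a log2 difference. No spleen term was used in the reported fit. The labels give each biological replicate its own spleen, and the pairing across treatments was taken from the shared replicate number. Deviations from group means correlated at 0.345 to 0.533 between arrays of the same number and at -0.414 to -0.0791 between different numbers. Deviations within a group cancel, so positive values for the same number push those for different numbers down. A fit with the spleen as a block is given beside the reported fit where calls differ. On simulated data for rapamycin against DMSO over 13278 genes, 82% of changes of 1 log2 and 41% of changes of 0.5 log2 were recovered. The changed genes were drawn from the brighter of all genes tested, and no spleen effect was simulated. These rates are therefore not those of the members.

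Members and lists were chosen with earlier results of these data known. Genes named are members called in either fit, the highest and lowest of each complex, and a set panel of subunits. Up to 2 genes a direction from each other list were also named. Members whose rapamycin and DMSO arrays did not overlap, Ndufs5, Uqcr10, Tmem70 and the NRF1 matches were added after their values were seen. Other settings covered blocks, normalization, filters, probe-set choice, limma options and leaving out arrays or spleens. Promoter windows came from RefSeq (GRCm38.p6) by gene ID.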

Additional observations from a re-analysis of the deposited data

How the results depend on the processing

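The 3 members called with rapamycin and the 2 with KU-0063794 stayed the same in number under quantile normalization, median centring, no filter, a filter at background, robust fitting, array weights and a threshold of 0.10. With rapamycin, 0 were called when only the 2 groups were fitted (limma adjusted p = 0.0535 to 0.0552 for the 3 genes) and 5 with an intensity trend (Cox5b and Uqcrfs1 added). Without the block, 1 to 3 were called when an array and 0 when a spleen was left out. With the spleen as a block, the same 3 were called without any 1 array and 0 to 1 without a spleen. With KU-0063794, 0 were called when only the 2 groups were fitted, 1 with the mean of a gene's probe sets and 1 with the probe set of highest variance. Without the block, 1 to 2 were called when an array and 0 when a spleen was left out. With the block, 1 to 3 were called without an array and 0 to 1 without a spleen. The block fits with an array or spleen left out were added after seeing the data. The mean of probe sets turned Uqcrq with KU-0063794 to 0.001 log2 and ended its rapamycin call (-0.08, limma adjusted p = 0.568), as 3 of its 4 probe sets read at background. Without a whole spleen no member was called in either contrast against DMSO, nor more than 3 of all genes, the fit holding 6 arrays; with the block 0 or 1 was. The replicate block, fixed or random, gave 4 members with rapamycin and 3 with KU-0063794, the random one with Uqcrfs1 in place of Ndufa4. The fixed one gave 1561 and 1644 genes in all, against 590 and 540 without it. Over the settings other than left-out arrays or spleens, all genes called ranged from 98 to 1561 and from 111 to 1644. KU-0063794 against rapamycin gave 0 members under every setting tried. The cause of these shifts was not tested beyond the number of arrays and probe sets that each setting holds. Dim probe sets, such as those of Cox7c and Ndufb4, limit what can be said of those genes.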
